A study of Homo sapiens with 2 samples.

Results

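Engulfment adaptors, their receptors and the TAM receptor system were followed in enzalutamide-resistant and enzalutamide-sensitive prostate cancer cells. The 10 genes, chosen by their place in the engulfment pathway and with the absence of GULP1 from the resistant library already known, are the ligands GAS6 and MFGE8, the TAM receptors AXL and TYRO3, the engulfment receptors MEGF10 and LRP1, and the adaptors GULP1, ELMO1, ELMO2 and ELMO3. All 10 have a row among the 25343 of the deposited expression table. Since the ratio between the libraries was used in the choice, the ratios below are a description and support no inference about the pathway.

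The tested cells were C4-2B ENZR, the enzalutamide-resistant line cultured in the presence of 20 µM enzalutamide (ENZ), an antiandrogen that blocks hormone signalling in prostate cells. Their counterpart was C4-2B Con, the enzalutamide-sensitive line carried alongside in DMSO. Both derive from C4-2B, a castration-resistant descendant of the human prostate cancer line LNCaP, both titles carry the tag shC, which the labels leave unexplained, and each line gave 1 RNA-seq library. Without a second library of either line the spread between cultures is unknown, long-term drug exposure and the identity of the line cannot be told apart, and no test of the conditions was possible.

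Engulfment is the uptake of dying cells and debris by their neighbours or by phagocytes. Dying cells expose phosphatidylserine, secreted bridging proteins such as GAS6 and MFGE8 bind it, and receptors on the engulfing cell bind the bridge: the TAM receptor tyrosine kinases (TYRO3, AXL and MERTK) for GAS6, and integrins for MFGE8. A second route runs through MEGF10 and LRP1 to the adaptor GULP1, and ELMO proteins together with DOCK1 switch on the small GTPase RAC1, which remodels the actin cytoskeleton around the target. Epithelial cells use the same parts, and in tumours the TAM receptors also transmit growth and survival signals.

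The ENZR library held 23479051 reads in genes and the Con library 21024484, so 1 read was worth 0.0404 CPM (reads per 1000000 after the authors' TMM scaling) in ENZR and 0.0490 CPM in Con. A library with 0 reads allows up to 3 counts, which is 0.121 CPM in ENZR and 0.147 CPM in Con. The luminal prostate markers reported here (KRT8, KRT18, HOXB13, FOXA1, EPCAM, TMPRSS2 and SPDEF) were all present, at 61.4 CPM or more in ENZR and 96.5 CPM or more in Con. The lowest in ENZR was SPDEF, which had 166.1 CPM in Con, and the lowest in Con was EPCAM, which had 100.5 CPM in ENZR. Of 8 macrophage markers, 4 were at 0 reads in ENZR and 4 in Con, and the list summed to 10.2 CPM in ENZR and 16.3 CPM in Con, nearly all of it from CD68 at 9.87 CPM in ENZR and 15.7 CPM in Con. The fibroblast list summed to 47.5 CPM in ENZR and 20.8 CPM in Con, of which COL1A1 gave 44.4 CPM in ENZR and 18.1 CPM in Con. The endothelial list summed to 5.90 CPM in ENZR and 11.3 CPM in Con. Of this, VWF gave 2.91 CPM in ENZR and 8.92 CPM in Con. PECAM1 had 1.66 CPM in ENZR and 1.57 CPM in Con, and KDR had 16 reads in ENZR and 4 in Con. In bulk RNA, fewer cells that express a gene and less RNA per cell cannot be told apart.

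GULP1 and LRP1 were the members with the largest differences, so the bases just upstream of their RefSeq starts are shown. Each run is the 250 bases before the start, on the plus strand of GRCh38.p14, 5′ to 3′, with CG dinucleotides in capitals. For the expression values the submitters' processing notes list hg19 without its role, and the GRCh38 coordinates apply to these sequences alone. The GULP1 stretch lies at chr2:188291624-188291873 and the LRP1 stretch at chr12:57128233-57128482.
GULP1: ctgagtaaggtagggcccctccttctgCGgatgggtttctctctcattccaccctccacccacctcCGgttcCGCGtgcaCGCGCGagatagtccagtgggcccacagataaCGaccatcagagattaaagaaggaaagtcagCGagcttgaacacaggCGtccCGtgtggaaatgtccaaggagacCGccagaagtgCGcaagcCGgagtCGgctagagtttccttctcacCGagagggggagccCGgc
LRP1: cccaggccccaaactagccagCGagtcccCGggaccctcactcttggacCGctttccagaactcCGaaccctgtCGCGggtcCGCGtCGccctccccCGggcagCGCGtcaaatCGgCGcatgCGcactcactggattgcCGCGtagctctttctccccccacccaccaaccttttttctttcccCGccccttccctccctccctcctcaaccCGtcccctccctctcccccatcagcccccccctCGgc
The GULP1 stretch holds 17 CG sites and the LRP1 stretch 20, against a median of 11 over the 35116 such windows of the RefSeq table. Of those windows, 63.2% held as many CG sites as GULP1 or fewer, and 69.8% as many as LRP1 or fewer, so neither count is unusual. TGTTCT, a hexamer found in androgen response elements, searched on both strands, was in neither stretch and in 12.4% of all windows. The GC box GGGCGG, searched likewise, occurred once in the LRP1 stretch, was absent from that of GULP1, and was held by 42.6% of all windows. TATAAA was in neither, against 10.7% of all windows. These matches describe letters and not binding.

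GULP1, a cytoplasmic adaptor whose phosphotyrosine-binding domain attaches to the tails of LRP1 and MEGF10 and which is related to CED-6 of Caenorhabditis elegans, had 0 CPM in ENZR and 130.2 CPM in Con. These values rest on 0 reads in ENZR and 2658 reads in Con. The GULP1 level in Con was 1073-fold above the ENZR floor of 3 counts, a figure that leaves out the counting error of Con. The exact counting interval of Con over ENZR includes that error and also allows more than 3 counts at 0 reads. By this interval, GULP1 was at least 872-fold lower in ENZR. Its log2 ratio of ENZR over Con, computed after adding 1 CPM to each value, was -7.04, which ranks 2 from the lowest among the 13803 genes whose mean over both libraries reached 1 CPM. Among the 6765 genes with 0 reads in ENZR, GULP1 had the highest level in Con. The 5 genes with the next highest Con levels at 0 ENZR reads are the most like it by this measure, over 2 libraries. They include the readthrough transcript TMEM189-UBE2V1 at 5.88 CPM in Con (120 reads), the antisense RNA FEZF1-AS1 at 5.24 CPM in Con (107 reads) and the metallopeptidase gene ADAM7 at 4.16 CPM in Con (85 reads). The other 2 are not reported here.

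The genes beside GULP1 on chromosome 2 differed among themselves. TFPI, which encodes tissue factor pathway inhibitor and is the nearest protein-coding gene on one side in RefSeq's order, had 0.485 CPM in ENZR and 25.3 CPM in Con (12 reads in ENZR and 516 in Con). It was 52.1-fold lower in ENZR, with an exact 95% counting interval of the Con over ENZR ratio from 29.6 to 101. COL3A1, the nearest on the other side, had 0 reads in ENZR and 5 in Con, and CALCRL had 1 read in ENZR and 2 in Con. ZSWIM2 had 0 reads in both libraries. COL5A2 had 0.728 CPM in ENZR and 1.22 CPM in Con, and the interval of its ratio, 0.594 for ENZR over Con, ran from 0.305 to 1.13. WDR75, the third gene on that side, had 71.1 CPM in ENZR and 61.5 CPM in Con. TFPI was thus lower in ENZR beside GULP1, WDR75 was higher by a ratio of 1.16 (1.07 to 1.24), and 3 of the 6 neighbours had 5 reads or fewer in each library. Over the 860 other genes kept from chromosome 2 the median log2 ratio was 0.06. Whether DNA at this locus differs between the lines was not tested.

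**Figure D1:**
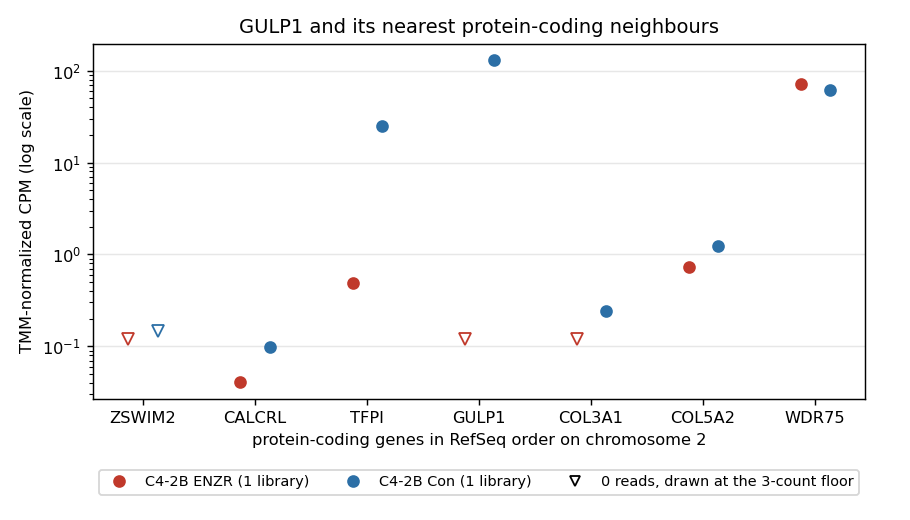
TMM-normalized CPM (log axis) of GULP1 and the 3 protein-coding genes on each side of it in RefSeq's order, with ENZR left of Con and 1 library each. Open triangles mark 0 reads and stand at the floor of 3 counts. TFPI (0.485 CPM in ENZR and 25.3 CPM in Con) and GULP1 (0 CPM in ENZR and 130.2 CPM in Con) lie far apart between the libraries, whereas WDR75 stands at 71.1 CPM in ENZR and 61.5 CPM in Con.

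LRP1, a large endocytic receptor that takes up many ligands and can bind calreticulin on dying cells, was the member with the highest ratio. Its level was 54.7 CPM in ENZR and 13.0 CPM in Con, from 1353 reads in ENZR and 265 in Con. The plain ratio of ENZR over Con was 4.21 (counting interval 3.69 to 4.83), and the log2 ratio of 1.99 ranks 269 from the highest among the 13803 genes. Over the 696 other genes kept from chromosome 12 the median log2 ratio was 0.14. STAT6, which overlaps LRP1 on the opposite strand, had 6 reads in ENZR and 8 in Con. LRPAP1, the chaperone that escorts LRP1 through the secretory pathway, stood at 127.7 CPM in ENZR and 105.9 CPM in Con. CALR, which encodes calreticulin, stood at 996 CPM in ENZR and 1401 CPM in Con. MEGF10, an engulfment receptor with epidermal growth factor-like repeats and related to CED-1 of the same worm, had 1 read in ENZR and 0 in Con, which is below the floor in both, so no fold is given.

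**Figure D2:**
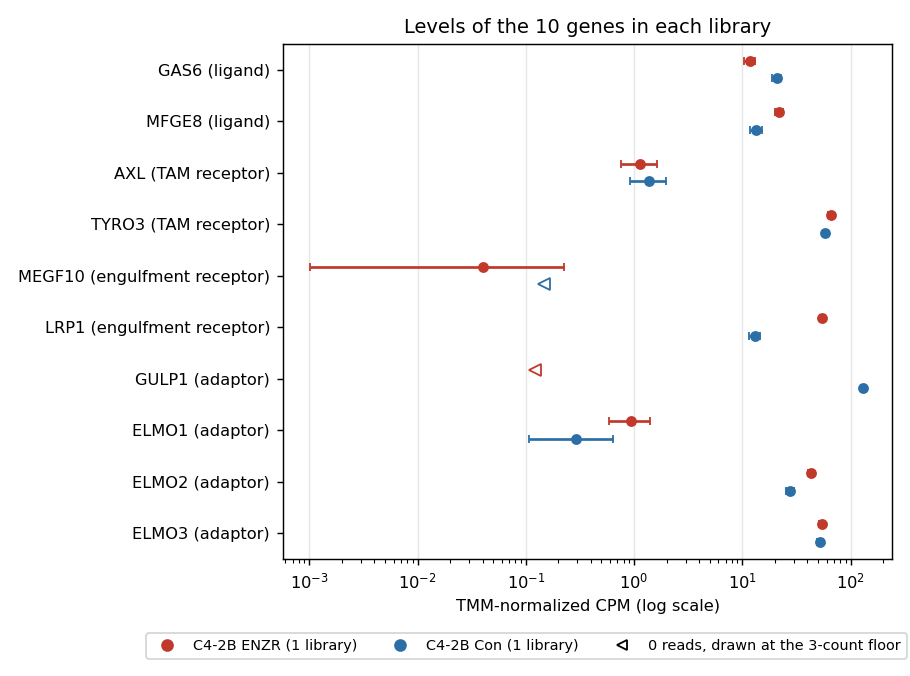
TMM-normalized CPM (log axis) of the 10 genes, with ENZR above Con and 1 library each. Bars are exact 95% Poisson intervals of the read count and cover counting error only, and open triangles mark 0 reads at the floor of 3 counts. GULP1 and LRP1 show the widest separation, while the bars of AXL, ELMO3 and ELMO1 overlap between the libraries. For ELMO1 the interval of the ratio (1.25 to 9.50) excludes 1 all the same. MEGF10 has a bar in ENZR only, from 1 read.

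The ELMO proteins, related to CED-12 of the worm, bind DOCK1 and form the exchange factor that loads RAC1 with GTP. ELMO3 had 53.9 CPM in ENZR and 52.6 CPM in Con, a ratio of ENZR over Con of 1.03 (0.945 to 1.11). ELMO2 had 42.9 CPM in ENZR and 27.7 CPM in Con, a ratio of 1.55 (1.40 to 1.72). ELMO1, the form best known from leukocytes, had 0.930 CPM in ENZR and 0.294 CPM in Con, on 23 reads in ENZR and 6 in Con, and its ratio of 3.16 had a wide interval from 1.25 to 9.50. With the authors' scaling, ELMO2 was thus higher in ENZR beyond counting error, as was ELMO1 on its few reads. ELMO3 was not distinguishable with that scaling. The makeup of the family, which does not depend on any scaling between libraries, was 55.2% ELMO3 (exact 95% interval 53.2% to 57.2%), 43.9% ELMO2 (41.9% to 45.9%) and 0.951% ELMO1 (0.604% to 1.42%) of 2418 ELMO reads in ENZR. In Con, ELMO3 made up 65.3% (62.9% to 67.6%), ELMO2 34.3% (32.1% to 36.7%) and ELMO1 0.365% (0.134% to 0.792%) of 1645 reads. The ELMO2 share was larger in ENZR and the ELMO3 share smaller, with intervals that do not meet. The annotated gene ZNF663P overlaps ELMO2 on the same strand and had 54 reads in ENZR and 4 in Con. How reads were divided between the pair was not tested.

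GAS6, the vitamin K-dependent ligand of all TAM receptors, stood at 11.7 CPM in ENZR and 20.9 CPM in Con, from 289 reads in ENZR and 426 in Con. It was 1.79-fold lower in ENZR (interval of Con over ENZR 1.53 to 2.08), with a log2 ratio of -0.79. GAS6 lies on chromosome 13, where the 237 other genes kept had a median log2 ratio of -0.54 and 83.1% were below 0. RASA3, a near neighbour named after its values were seen, had 11.7 CPM in ENZR and 20.0 CPM in Con. The part of this chromosome-wide difference in the GAS6 value was not tested. The antisense gene GAS6-AS1 overlaps GAS6 and had 28 reads in ENZR and 103 in Con, and because the use of strand is not given in the sources used here, reads of the pair cannot be told apart. MFGE8, the bridge from phosphatidylserine to integrins, had the opposite direction at 21.9 CPM in ENZR and 13.4 CPM in Con, a ratio of 1.64 (1.41 to 1.90). PROS1, protein S and the other TAM ligand, had 3.72 CPM in ENZR and 2.16 CPM in Con, a ratio of 1.73 (1.19 to 2.53).

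TYRO3 was the most read TAM receptor in both libraries. It had 65.6 CPM in ENZR and 58.6 CPM in Con, a ratio of 1.12 (1.04 to 1.21). Its log2 ratio of 0.16 lay between 0.15 and 0.27 under every setting tried, the highest with the TMM scaling undone. TYRO3 and MFGE8 lie on chromosome 15, where the 473 other genes kept had a median log2 ratio of 0.13 and 37.0% were below 0. The part of this in either value was not tested. AXL, the TAM receptor often tied to drug resistance and a mesenchymal state in cancer, was low, at 1.13 CPM in ENZR and 1.37 CPM in Con on 28 reads each. Its ratio of 0.825 had an interval from 0.471 to 1.45, so no difference was detectable at this depth. MERTK, the third receptor and no member of the 10, had 12.5 CPM in ENZR and 5.63 CPM in Con, a ratio of 2.23 (1.79 to 2.78). Of the 1959 TAM reads in ENZR, TYRO3 took 82.7% (81.0% to 84.4%), MERTK 15.8% (14.2% to 17.5%) and AXL 1.43% (0.952% to 2.06%). Of the 1339 TAM reads in Con, TYRO3 took 89.3% (87.5% to 90.9%), MERTK 8.59% (7.14% to 10.2%) and AXL 2.09% (1.39% to 3.01%). MERTK thus took a larger share of TAM reads in ENZR, free of any scaling between libraries. The pseudogene TYRO3P, a copy of TYRO3, had 3 reads in ENZR and 1 in Con.

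Levels of different genes can be compared only per length, and the annotated transcripts of 1 gene differ in length, so each level was divided by the longest and by the shortest protein-coding transcript of at least 1000 bases in GENCODE v29. In Con, GULP1 had 36.7 to 104.8 CPM per kilobase and was above every other member for any of these lengths. ELMO3 came next in Con by the longest transcripts at 20.8 CPM per kilobase, and GAS6, ELMO2, TYRO3 and MFGE8 lay between 6.90 and 8.38 CPM per kilobase, with ranges that overlap. In ENZR, ELMO3 had 21.3 to 23.6 CPM per kilobase, ELMO2 11.7 to 19.9 and MFGE8 11.3 to 18.7, the last pair overlapping. AXL and ELMO1 lay at or under 0.469 CPM per kilobase in ENZR, below every expressed member but MEGF10, and their ranges overlapped. LRP1, whose transcripts run from 1693 to 14897 bases, had 0.872 to 7.67 CPM per kilobase in Con, below ELMO3 and above AXL, and this range overlaps those of ELMO2, TYRO3 and MFGE8. Its range in ENZR, 3.67 to 32.3 CPM per kilobase, was too wide to place it among GAS6, TYRO3, MFGE8, ELMO2 and ELMO3.

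Of the 10 genes, 8 reached a mean of 1 CPM, and MEGF10 and ELMO1 did not. Among those 8, GULP1 was at least 2-fold lower in ENZR by the log2 ratio, where 4.64% of all genes kept were, and LRP1 was at least 2-fold higher, where 6.69% were. The other 6 lay in between. The 8 genes had a median log2 ratio of 0.10, against -0.01 over all genes kept, with 5 above 0 and 3 below. The counting interval of the ratio excluded 1 for 6 of the 8, all but AXL and ELMO3, and for 71.2% of all genes kept, so an interval off 1 is common between these libraries. Because the members were picked with these ratios known, nothing is read from these counts.

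**Figure D3:**
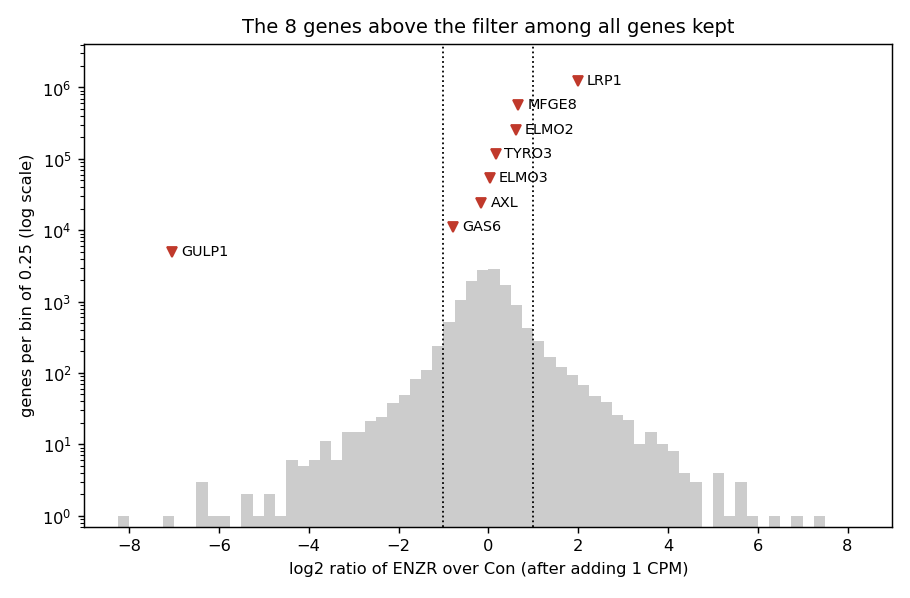
Histogram of the log2 ratio of ENZR over Con for the 13803 genes kept (bins of 0.25, log axis of gene counts). Triangles give the log2 ratios of the 8 members above the filter, their height has no meaning, and dotted lines mark 2-fold. GULP1 at -7.04 lies in the far low tail, LRP1 at 1.99 beyond the upper line, and the other 6 between the lines.

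The rest of the pathway, in 7 lists of 76 further genes, was counted by the log2 ratio after adding 1 CPM. Of the 61 that reached a mean of 1 CPM, 3 (4.92%, against 6.69% of all genes kept) exceeded 2-fold upwards in ENZR and 2 (3.28%, against 4.64%) exceeded it downwards, 33 were above 0 and 28 below, and the median log2 ratio was 0.04. These shares are near those of all genes kept, and the counts became 5 higher and 0 lower with the TMM scaling undone, so nothing is read from them about the pathway. The higher genes were MERTK, PLSCR1, a phospholipid scramblase that interferon induces, and CD24, a surface protein that restrains engulfment by macrophages. PLSCR1 had 4.97 CPM in ENZR and 0.196 CPM in Con (123 reads in ENZR and 4 in Con), a ratio of 25.4 (9.67 to 94.6). CD24 had 32.8 CPM in ENZR and 6.47 CPM in Con, a ratio of 5.08 (4.22 to 6.15), and it has processed copies in the genome, so its read assignment is uncertain. The lower genes were SCARB1, a lipoprotein receptor that also binds phosphatidylserine, at 97.9 CPM in ENZR and 202.1 CPM in Con, and DOCK5, a relative of DOCK1, at 19.0 CPM in ENZR and 40.2 CPM in Con. SCARB1 was 2.07-fold lower in ENZR (interval of Con over ENZR 1.96 to 2.17) and DOCK5 2.11-fold lower (1.88 to 2.37), and neither reached 2-fold by the log2 ratio once the authors' TMM scaling was undone. MERTK, at a log2 ratio of 1.03, lay just past the line and fell short of it with 5 CPM added in place of 1 CPM, as did PLSCR1 at 0.94.

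DOCK1, the exchange factor that ELMO proteins partner, had 99.6 CPM in ENZR and 80.2 CPM in Con, a ratio of 1.24 (1.17 to 1.32). CRK, the adaptor that brings DOCK1 to receptors, had 116.1 CPM in ENZR and 97.0 CPM in Con, and the interval of its ratio ran from 1.13 to 1.27. RAC1 had 234.9 CPM in ENZR and 217.3 CPM in Con, a ratio of 1.08 (1.04 to 1.12). DOCK1, CRK and RAC1 were each higher in ENZR beyond counting error. The interval excluded 1, in either direction, for 71.2% of all genes kept, so nothing is read from these 3 about the pathway. Among the 16 adaptor and RAC genes kept beside the members, 9 had a log2 ratio above 0 and 7 below. Their median was 0.05, the range ran from -1.04 for DOCK5 to 0.56 for RAC3, and DOCK5 alone passed 2-fold. Of 16 further genes listed with the engulfment receptors, LRPAP1 among them, 5 were kept, with a median of -0.09, and the others, among them the phosphatidylserine receptors BAI1, TIMD4 and STAB2, stood below a mean of 1 CPM. The 18 phagosome maturation genes had a median of 0.07 and the 6 cholesterol export genes 0.02, with none past 2-fold by the log2 ratio after adding 1 CPM. ABCA1, a cholesterol exporter, had 2.87 CPM in ENZR and 1.03 CPM in Con, a plain ratio of 2.79 (1.69 to 4.78) but a log2 ratio of 0.93 on that scale. The 9 genes of eat-me and do-not-eat-me signals had a median of -0.13, with PLSCR1 and CD24 past 2-fold. CD47, the classical do-not-eat-me signal, stood at 36.9 CPM in ENZR and 40.5 CPM in Con.

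**Figure D4:**
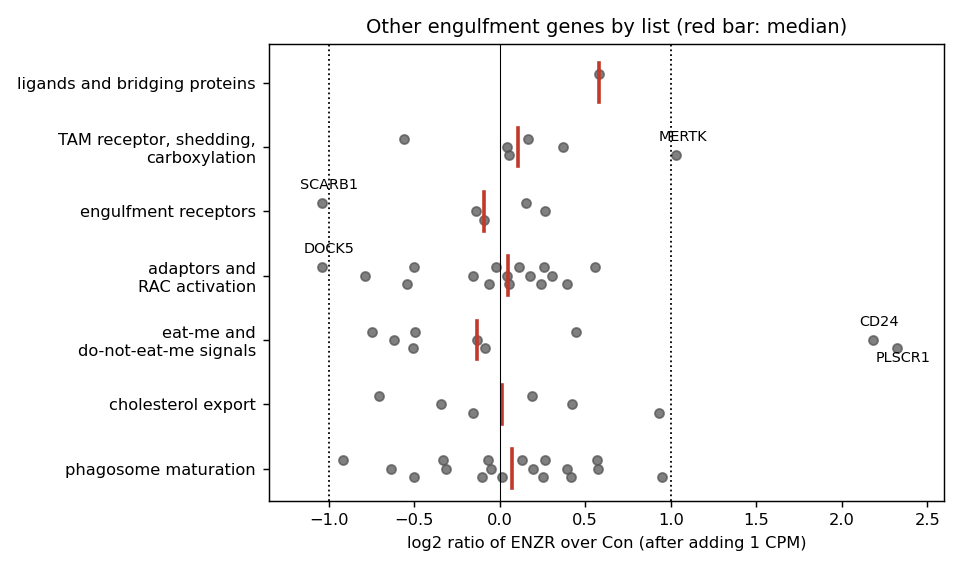
Log2 ratio of ENZR over Con for the 61 further engulfment genes kept, by list, with the red bar at each list's median and dotted lines at 2-fold. MERTK, PLSCR1 and CD24 lie beyond the upper line and SCARB1 and DOCK5 just beyond the lower one.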

How the data were processed

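RNA-seq of 1 C4-2B ENZR and 1 C4-2B Con library was used. The deposited table gives 1 signal value per gene and library, TMM-normalized CPM per its name. Bowtie2 2.1.0, RSEM 1.2.15, edgeR and hg19 are listed in the submitters' processing notes without their roles; the annotation and the handling of strand are not stated there. Every value was a whole multiple of 1 step (100% within 0.01 reads in each library), so whole reads, which may be rounded RSEM estimates, were recovered. The table held 0 further sample columns.

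The libraries were compared by the log2 ratio after adding 1 CPM, over genes averaging at least 1 CPM, and by plain CPM ratios with exact 95% Clopper-Pearson intervals (Python 3.11.15, scipy 1.17.1, checked on data with known answers). Intervals and the floor of 3 counts cover counting error only. With 1 library per group no count test was possible and no p-value is given. Members and lists were chosen with earlier results of these data known. Named genes are the 10 members, up to 2 highest and 2 lowest past 2-fold per list, MERTK, PROS1, DOCK1, CRK and RAC1, the 5 genes most like GULP1 and its 3 neighbours on each side; LRPAP1, CALR, CD47, ABCA1, RAC3, BAI1, TIMD4, STAB2, RASA3, overlapping genes and markers were added afterwards. One marker is not reported here. RefSeq (GRCh38.p14) gave promoter sequences for all 10 members, gene order, and chromosomes for 13477 of the 13803 genes kept. Alternatives changed the pseudocount, filter, scaling and the 2 repeated symbols.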

Additional observations from a re-analysis of the deposited data

How the results depend on the processing

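GULP1 as the member at least 2-fold lower in ENZR and LRP1 as the one at least 2-fold higher kept these places under all 8 alternatives, with log2 ratios from -8.03 to -4.76 for GULP1 and from 1.73 to 2.11 for LRP1. No member's log2 ratio changed sign. For MEGF10, with 1 read in ENZR and 0 in Con, no setting could have changed it. AXL was covered by 8 of the 9 settings, since its mean lay below the filter of 5 CPM. The counting intervals of the AXL and ELMO3 ratios held 1, so little is read from their constant sign. With TMM scaling undone, the median of all genes moved from -0.01 to 0.10, and TYRO3 and ELMO3 moved with it, to 0.27 and 0.15. Calls split into 1073 higher and 525 lower then, against 923 and 641 with the authors' scaling. The wider genes at least 2-fold lower, 2 at first, numbered 0 in each of 3 settings (TMM scaling undone, upper quartiles used for scaling, or a total without the 10 most abundant genes) and 1 with a pseudocount of 5 CPM. Those at least 2-fold higher, 3 at first, numbered 5 in the first and 5 in the last of these, where VPS41 and ABCA1 joined. They numbered 4 with upper quartile scaling and 4 with a pseudocount of 0.5 CPM. Only 2 remained with a filter at a mean of 5 CPM, and 1 with a pseudocount of 5 CPM. With that pseudocount, 447 of all genes were higher and 371 lower. That pseudocount shrinks the log2 ratios of low genes by construction: PLSCR1, at 2.32 with 1 CPM added, stood at 0.94. Leaving out a replicate was not run, since each group has 1 library. No paired analysis was possible because each group has 1 library and no test was made. Depth limits AXL, ELMO1 and MEGF10, which rest on 28 reads or fewer per library.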
